A study of Mus musculus with 6 samples.

Results

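Interferon-stimulated genes were examined in inguinal white adipose tissue, a subcutaneous fat depot, of mice with adipocyte deletion of Igf1r, which encodes the receptor for insulin-like growth factor 1, and of their littermate controls. The comparison addresses whether interferon-responsive transcripts of the depot differ when adipocytes lack the receptor. The 36 genes are a list chosen by symbol. All 36 are in the deposited table of 14861 genes, and all 36 passed the filter on low values, as 12993 genes did. The AdIGF1RKO group carried a floxed Igf1r gene (from B6;129-Igf1rtm2Arge/J mice) and the Adipoq-cre transgene (from B6; FVB-Tg (Adipoq-Cre)1Evdr/J mice), and the Flox group consisted of littermates with the floxed gene. Both groups were kept for 24 weeks on chow in which fat supplied 10% of the calories, were fasted overnight and were anaesthetised with Avertin before the tissue was frozen. Each group had 3 libraries. Sex and age at sampling are not given in the labels, nor is it stated that each library is a separate animal, so p-values measure the spread between these libraries. The adiponectin promoter drives Cre in adipocytes, so the vascular, immune and stromal cells of the pad keep the receptor, and the RNA of all of them was measured together. In such bulk tissue, fewer cells of a type and less RNA per cell cannot be told apart.

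Interferons are secreted signals of antiviral defence. Type I interferons bind the receptor IFNAR1/IFNAR2, which activates JAK kinases and leads to the complex ISGF3, of which STAT2 and IRF9 are subunits, and ISGF3 binds the interferon-stimulated response element (ISRE) in the promoters of its targets. Interferon gamma acts through IFNGR1/IFNGR2 and the gamma-activated site (GAS) and raises, among others, IRF1, guanylate-binding proteins and the immunoproteasome. The products block viral RNA and protein synthesis, sense foreign nucleic acid, or feed antigen presentation, and many are present at a low level without infection. In fat both adipocytes and the resident macrophages can respond to interferon.

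A few promoters are printed here because they carry copies of the elements through which interferon acts. RefSeq promoter windows (250 bases before to 50 after the gene start, build GRCm38.p6) were matched for 24 of the 36 genes. An ISRE core, searched as GAAANNGAAA on both strands, lay in 12 of those 24 (50%), against 3.99% of 27025 genes with a window. A GAS core, searched as TTCNNNGAA, which reads the same on both strands, lay in 6 of 24 (25%), against 9.55% of all genes. Oas1a and Bst2 held both. In Bst2 the GAS match overlaps an ISRE match, and in Oas1a the matches lie apart. A match is a description of letters, not of a bound site. The windows of Isg15 (chr4:156200769-156201068, minus strand), Ifit1 (chr19:34640639-34640938, plus strand), Ifit3 (chr19:34583279-34583578, plus strand), Ifit3b (chr19:34607707-34608006, plus strand) and Gbp2 (chr3:142620413-142620712, plus strand) hold the ISRE core, and the first window of Irf1 (chr11:53769764-53770063, plus strand) holds the GAS core. Each is written 5′ to 3′ on the strand of the gene, with the motif matches in capitals.
Isg15: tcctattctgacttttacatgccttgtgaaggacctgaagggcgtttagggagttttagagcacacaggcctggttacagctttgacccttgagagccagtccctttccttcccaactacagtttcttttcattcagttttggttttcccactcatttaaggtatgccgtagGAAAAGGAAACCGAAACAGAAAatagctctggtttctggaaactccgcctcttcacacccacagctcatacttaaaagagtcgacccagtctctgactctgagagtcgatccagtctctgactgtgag
Ifit1: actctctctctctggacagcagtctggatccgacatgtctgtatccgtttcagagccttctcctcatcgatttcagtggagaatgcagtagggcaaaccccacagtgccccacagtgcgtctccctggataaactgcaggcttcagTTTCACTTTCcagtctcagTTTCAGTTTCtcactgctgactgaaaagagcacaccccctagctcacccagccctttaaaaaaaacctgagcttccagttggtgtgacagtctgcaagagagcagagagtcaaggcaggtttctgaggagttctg
Ifit3: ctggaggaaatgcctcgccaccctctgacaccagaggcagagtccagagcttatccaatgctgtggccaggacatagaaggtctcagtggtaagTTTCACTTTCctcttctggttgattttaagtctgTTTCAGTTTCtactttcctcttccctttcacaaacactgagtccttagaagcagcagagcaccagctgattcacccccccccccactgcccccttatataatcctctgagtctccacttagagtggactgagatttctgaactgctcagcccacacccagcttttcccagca
Ifit3b: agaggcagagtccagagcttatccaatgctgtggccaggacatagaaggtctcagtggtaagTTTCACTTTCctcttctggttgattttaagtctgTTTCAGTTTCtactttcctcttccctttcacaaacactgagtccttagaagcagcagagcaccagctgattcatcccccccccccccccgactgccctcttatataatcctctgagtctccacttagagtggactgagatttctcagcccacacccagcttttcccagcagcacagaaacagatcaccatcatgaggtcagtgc
Gbp2: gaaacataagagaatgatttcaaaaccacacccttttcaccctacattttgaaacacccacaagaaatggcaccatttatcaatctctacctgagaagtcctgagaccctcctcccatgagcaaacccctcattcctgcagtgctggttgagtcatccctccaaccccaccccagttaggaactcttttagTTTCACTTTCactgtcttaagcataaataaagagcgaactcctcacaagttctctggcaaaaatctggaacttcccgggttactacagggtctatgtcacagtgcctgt
Irf1: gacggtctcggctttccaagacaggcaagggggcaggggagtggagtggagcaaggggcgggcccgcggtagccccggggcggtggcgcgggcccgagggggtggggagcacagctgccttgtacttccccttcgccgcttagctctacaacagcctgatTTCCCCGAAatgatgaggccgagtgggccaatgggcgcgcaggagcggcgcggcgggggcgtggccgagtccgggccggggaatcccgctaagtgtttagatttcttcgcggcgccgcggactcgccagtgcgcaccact
In Isg15, 3 overlapping cores run in a row, the first starting 78 bases before the gene start. Ifit1 has 2 cores, 104 and 85 bases before its start, and Ifit3 has 2, 156 and 122 bases before. Ifit3b has the same pair at 188 and 154 bases before its start, so its window is offset from that of Ifit3. Its window was identical to that of Ifit3 at 259 of 340 alignment columns (76.2%). Columns with a gap, including those from the offset, count as not identical, so this share understates the likeness of the paired bases. The Ifit1 and Ifit3 windows were identical at 52.5% of columns by the same count, and unrelated windows were not aligned for comparison. In Irf1 the GAS core begins 90 bases before the start. Psmb9 and Tap1 lie head to head, and 275 bases of their windows are the same stretch read on opposite strands. The other genes with an ISRE core were Ifih1, Gbp3, Oas3, Oas1a, Bst2, Stat2 and Rsad2, and the other genes with a GAS core were Oas1a, Bst2, Ifi35, Psmb8 and Ifit2.

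Values below are scaled CPM, that is, reads per 1000000 of a library of average size after median-ratio rescaling. They are not divided by gene length, so levels are not compared between genes. Library values are given in the order 1, 2, 3. Between 60617147 (Flox 3) and 70695527 (AdIGF1RKO 1) reads per library were recovered, and a single read corresponded to 0.0130 to 0.0207 scaled CPM. Igf1r itself had 6.44, 6.47 and 5.86 in Flox and 6.11, 5.27 and 4.85 in AdIGF1RKO, and the groups overlapped (log2 difference -0.18, SE 0.12, limma adjusted p = 0.998). Which exons Cre removes is not stated in the labels, so this level is no check of the deletion. The 12 adipocyte markers made up 5.30% to 8.53% of the reads of a library. Skeletal muscle markers took 13.7% of all reads of Flox 3 and 4.96% of those of AdIGF1RKO 3, against 0.0602% to 0.960% in the other 4 libraries. The part of muscle RNA in the values below was not tested, and results without both libraries numbered 3 are given beside them.

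None of the interferon-stimulated genes differed between the groups by the test. limma called 0 of 36 at an adjusted p under 0.05, as it called 0 of 12993 genes (0.0%), and every adjusted p of the 36 was 0.998. At an unadjusted p under 0.05 there were 0 of the 36 genes, against 2.96% of all tested genes, and the smallest unadjusted limma p was 0.0991, for Ifi27l2a. On the recovered reads, edgeR's quasi-likelihood test called 0 of 36 (0.0% of all genes), and 0 had an unadjusted p under 0.05. With DESeq2 0 of 36 were called (0.178% of 12932 genes), and Ifi27l2a alone had an unadjusted p under 0.05.

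The log2 difference, AdIGF1RKO minus Flox, ran from -0.30 (Ifi27l2a) to 0.34 (Mx2) with a median of 0.02, against a median of -0.02 over all tested genes. It was positive for 22 genes and negative for 14. That split moved with the scaling, to 9 positive with the values as deposited (where 14.8% of all genes were positive and the median of all was -0.17) and 31 positive with libraries scaled to equal sums (72.3% of all genes, median of all 0.09). Relative to the median of all genes, the 36 genes lay at 0.04 in the main and the deposited scaling and at 0.05 with equal sums. The 95% limma interval lay within 1 log2 unit of 0 for 35 of 36 genes (97.2%, against 90.1% of all genes) and within 0.5 for 19 (52.8%, against 55.1%). The exception at 1 was Mx2, with an interval from -0.34 to 1.01. For the other 35, a change of 1 unit on this scale, which understates the change of low genes, lay outside the interval.

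**Figure D1:**
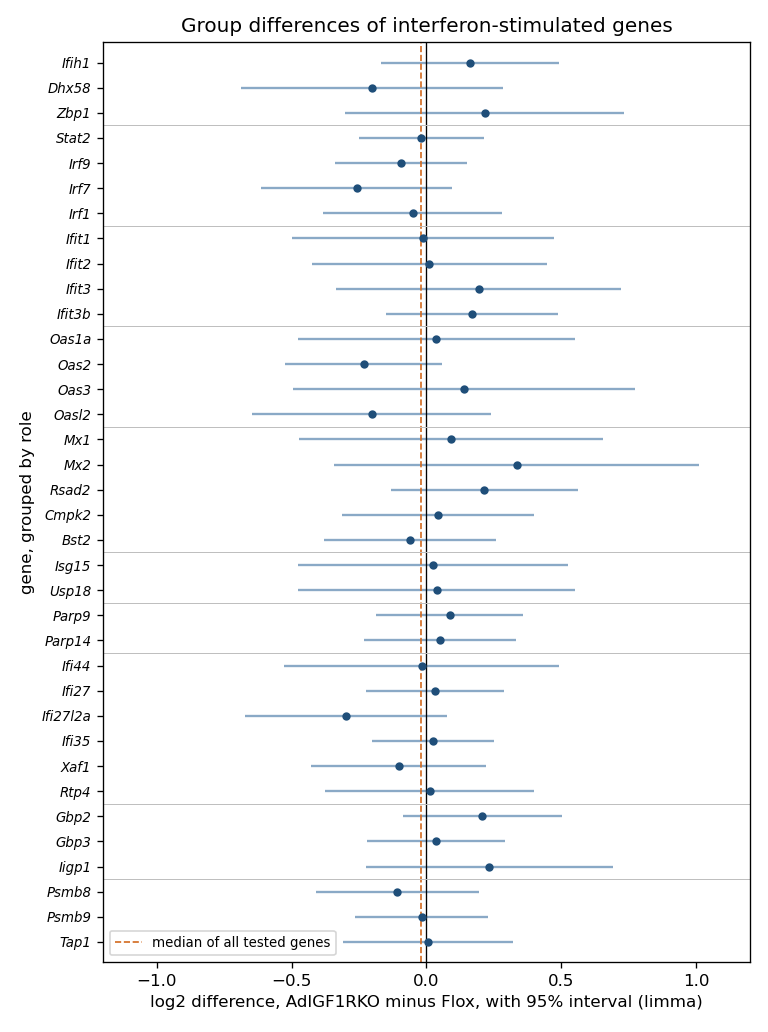
Log2 difference of each interferon-stimulated gene (AdIGF1RKO minus Flox, on the log2(scaled CPM + 1) scale, horizontal axis) as a point with its 95% limma interval, grouped by role, with the median of all 12993 tested genes as a dashed line. The points run from -0.30 to 0.34 and all 36 intervals include 0.

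The groups overlapped for 35 of the 36 genes. Groups without overlap occurred for 1 gene (2.78%), Ifi27l2a, against 8.27% of all genes in either direction and 3.86% in the lower direction. All 3 AdIGF1RKO values lay inside the range of the Flox values for 13 genes (36.1%), against 23.4% of all genes. The SD of the log2 values was larger in Flox than in AdIGF1RKO for 29 of 36 genes (80.6%), against 57.6% of all genes. The 36 genes share their libraries and are not independent of each other.

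The controls themselves differed by library. Flox 2 was the highest of the 6 libraries for 16 genes (44.4%, against 15.2% of all tested genes) and the lowest for none of them. Flox 3 was the lowest for 21 genes (58.3%, against 26.2%) and the highest for Ifi35 only. On the log2 scale, the median gene of the 36 stood at 0.05, 0.20 and -0.22 in Flox 1, 2 and 3 and at 0.06, 0.07 and -0.07 in AdIGF1RKO 1, 2 and 3, each relative to the same median over all tested genes. Flox 2 stood above the average and Flox 3 below it, with the AdIGF1RKO libraries between them. The direction of the small group difference turned on them: the median log2 difference was -0.09 without Flox 3, with 8 of 36 genes positive, and 0.13 without Flox 2, with 25 positive. It was -0.03 without AdIGF1RKO 2, with 16 positive, and -0.03 without both libraries numbered 3, also with 16 positive. No gene of the 36 was called by limma in any of these fits. The 12 adipocyte markers were also high in Flox 2, at 0.24 on the same scale, and Flox 2 was the highest library for 8 of them. Their part in the high values of Flox 2 was not tested.

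**Figure D2:**
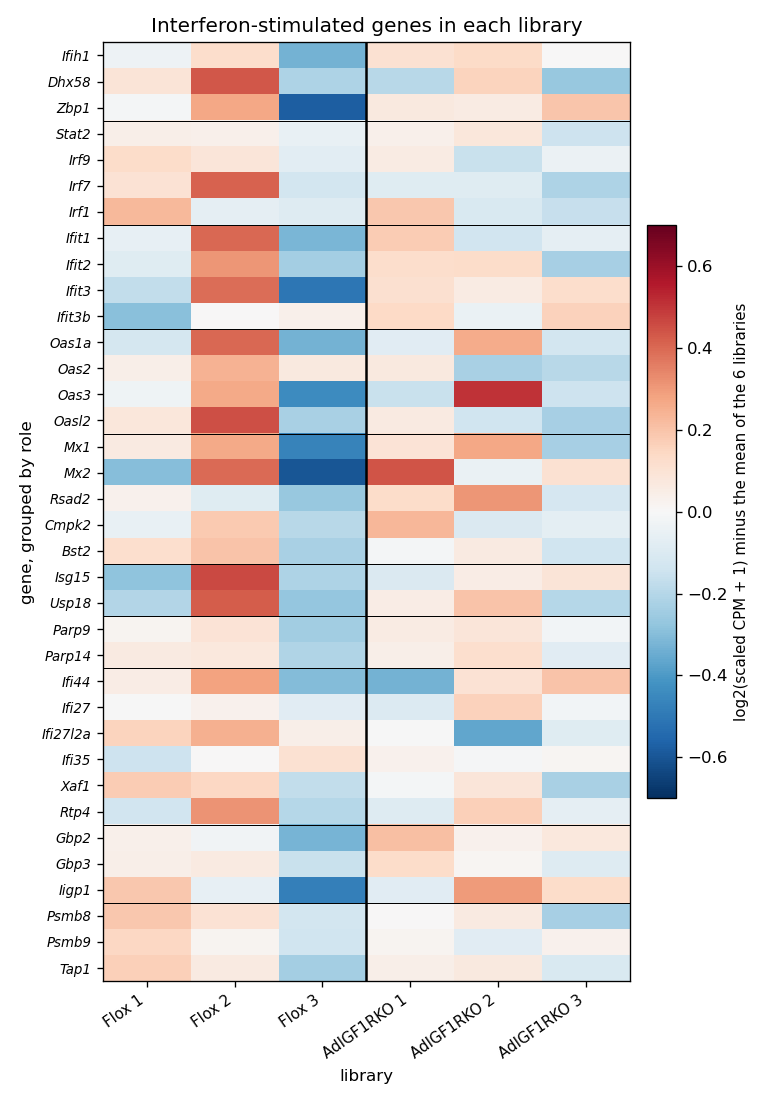
Colour shows log2(scaled CPM + 1) of each gene in each library minus the mean of that gene over the 6 libraries, with genes grouped by role and a line between the Flox and AdIGF1RKO libraries. Flox 2 is the highest library for 16 of the 36 genes and Flox 3 the lowest for 21.

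Sensors of foreign nucleic acid come first in the response. Ifih1, which encodes the RNA sensor MDA5, had 17.3, 19.4 and 13.9 in Flox and 19.2, 19.6 and 17.8 in AdIGF1RKO. Dhx58, encoding the related regulator LGP2, had 11.0, 14.3 and 8.72 in Flox and 8.90, 11.6 and 8.40 in AdIGF1RKO. Zbp1, the sensor of Z-form nucleic acid that can trigger cell death, had 23.0, 28.3 and 15.2 in Flox and 24.5, 24.3 and 26.8 in AdIGF1RKO. For Zbp1 the Flox libraries spanned the whole AdIGF1RKO range, with Flox 2 at 1.86 times Flox 3. The log2 differences were 0.16 (SE 0.14) for Ifih1, -0.20 (SE 0.20) for Dhx58 and 0.22 (SE 0.21) for Zbp1. Without both libraries numbered 3 the difference of Zbp1 was -0.06.

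The groups overlapped for all 4 transcription factor genes. Irf7, which amplifies the type I response and is itself induced by it, had 50.8, 63.1 and 43.2 in Flox and 44.4, 44.4 and 40.6 in AdIGF1RKO. Its mean was 52.4 ± 10.1 in Flox and 43.1 ± 2.21 in AdIGF1RKO (SD, n = 3 each), a log2 difference of -0.26 with a 95% interval from -0.61 to 0.10 (limma adjusted p = 0.998). The 3 AdIGF1RKO values of Irf7 lay close together, with Flox 3 among them and Flox 1 and 2 above. Irf9, a DNA-binding subunit of ISGF3, had 40.3, 39.1 and 34.9 in Flox and 38.3, 32.9 and 35.7 in AdIGF1RKO. Irf1, a factor known to be induced by interferon gamma and whose window holds the GAS core printed above, had 74.4, 60.6 and 59.5 in Flox and 72.4, 58.7 and 56.5 in AdIGF1RKO. In both groups of Irf1 the library numbered 1 was the highest and the other two were close to each other. Stat2, the partner of IRF9 in ISGF3, varied least of the 36 genes, with a highest value 1.17 times its lowest and a log2 difference of -0.02 (SE 0.10).

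The IFIT proteins bind viral RNA and block its translation. Ifit3 had 36.9, 54.9 and 29.1 in Flox and 45.1, 43.5 and 45.4 in AdIGF1RKO. The Flox values of Ifit3 enclosed those of AdIGF1RKO, with means of 40.3 ± 13.3 and 44.7 ± 1.06 (SD, n = 3 each). Ifit3b, its near copy, had 8.86, 11.1 and 11.4 in Flox and 12.3, 10.7 and 12.5 in AdIGF1RKO. Reads of Ifit3 and Ifit3b may be split uncertainly between these similar genes, as may those of the related Oas and guanylate-binding genes. Ifit1, which recognises the caps of foreign RNA, had 13.2, 18.6 and 10.9 in Flox and 15.8, 12.5 and 13.2 in AdIGF1RKO. Its Flox libraries had the order seen for Ifit3, with Flox 2 highest and Flox 3 lowest. The log2 differences of Ifit1, Ifit2, Ifit3 and Ifit3b were -0.01, 0.01, 0.19 and 0.17. As a group the 4 IFIT genes stood at 0.36 in Flox 2 and -0.28 in Flox 3, and at 0.14, 0.01 and 0.03 in the AdIGF1RKO libraries (median log2 deviation relative to all tested genes).

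The OAS enzymes make oligoadenylates that activate the ribonuclease RNase L. Oas2 had 17.4, 20.2 and 17.8 in Flox and 17.8, 14.3 and 14.7 in AdIGF1RKO. AdIGF1RKO 2 and 3 lay below every Flox library while AdIGF1RKO 1 lay within their range, and the log2 difference of -0.23 had a 95% interval from -0.53 to 0.06 (limma adjusted p = 0.998). Oasl2, a relative that also restrains viruses, had 40.1, 52.2 and 32.3 in Flox and 39.7, 34.4 and 32.2 in AdIGF1RKO (log2 difference -0.20, SE 0.18). Oas3, which encodes another of these synthetases, was among the lowest counted of the 36, at 79 to 289 reads a library. It had 2.50, 3.29 and 1.64 in Flox and 2.22, 4.09 and 2.24 in AdIGF1RKO, so that its AdIGF1RKO libraries differed by more among themselves than the groups did. Oas1a had a log2 difference of 0.04 (SE 0.21), and Flox 2 was its highest library.

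The next genes encode antiviral effectors with other modes of action. Mx2, a dynamin-like GTPase, had 2.81, 5.16 and 2.09 in Flox and 5.37, 3.53 and 4.05 in AdIGF1RKO, from 101 to 414 reads. Its mean was 3.35 ± 1.60 in Flox and 4.32 ± 0.946 in AdIGF1RKO (SD, n = 3 each), a ratio of 1.29, and Flox 2 lay close to the highest AdIGF1RKO library. Rsad2, encoding viperin, which makes a chain-terminating nucleotide, had 17.3, 15.9 and 13.9 in Flox and 18.6, 21.3 and 15.6 in AdIGF1RKO (log2 difference 0.22, SE 0.14). AdIGF1RKO 1 and 2 lay above all Flox libraries for Rsad2 and AdIGF1RKO 3 lay among them. Bst2, encoding tetherin, which holds budding virus at the cell surface, had 182, 192 and 143 in Flox and 166, 175 and 152 in AdIGF1RKO. Mx1, the nuclear relative of Mx2, and Cmpk2, a mitochondrial nucleotide kinase, had log2 differences of 0.09 (SE 0.23) and 0.04 (SE 0.15).

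ISG15 is a ubiquitin-like protein that is attached to other proteins, and USP18 removes it and dampens receptor signalling. Isg15, whose window holds 3 ISRE cores, had 25.3, 43.0 and 26.5 in Flox and 28.8, 32.1 and 33.0 in AdIGF1RKO. The means were 31.6 ± 9.91 and 31.3 ± 2.22 (SD, n = 3 each), with a log2 difference of 0.02 and a 95% interval from -0.48 to 0.52. Usp18 had 15.6, 24.7 and 14.9 in Flox and 18.9, 21.0 and 15.7 in AdIGF1RKO. In both genes Flox 2 stood above the other 5 libraries, and the pair stood at 0.45 in Flox 2 against -0.23 and -0.24 in Flox 1 and 3 (median log2 deviation relative to all tested genes). The ADP-ribosyltransferase genes Parp9 and Parp14 encode modifiers of proteins that act in antiviral signalling. Parp9 had 45.0, 47.6 and 37.3 in Flox and 46.3, 47.2 and 43.9 in AdIGF1RKO. Parp14 had 26.4, 26.6 and 21.7 in Flox and 26.0, 27.4 and 23.8 in AdIGF1RKO. Flox 3 was the lowest library for both.

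**Figure D3:**
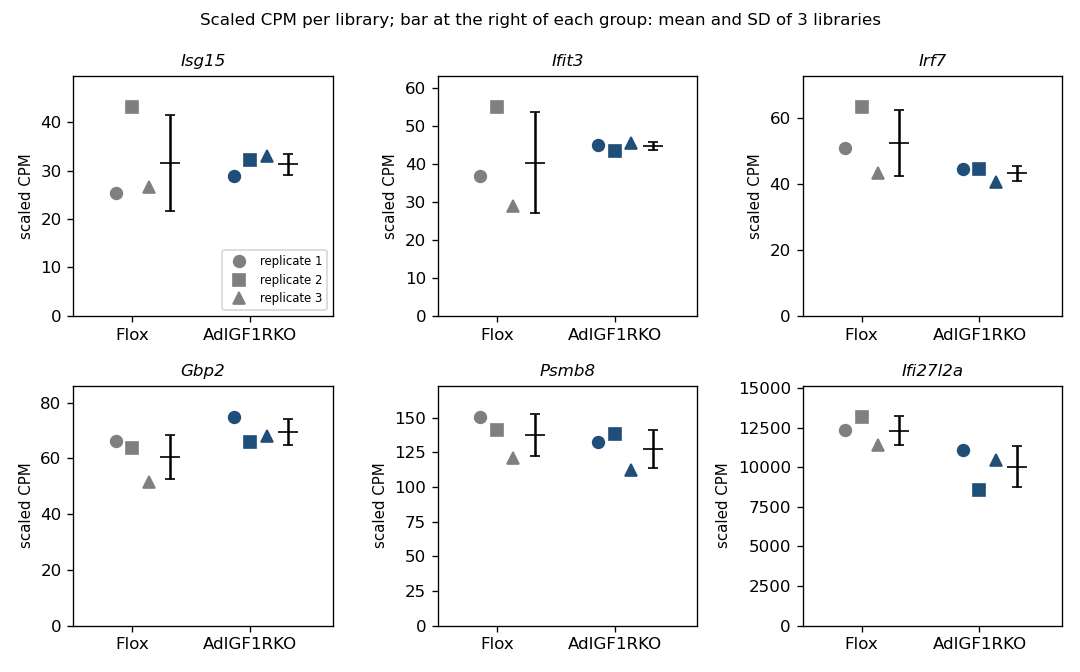
Scaled CPM (vertical axes, starting at 0) of 6 of the genes in each library, with marker shape for the replicate number and a bar for the mean and SD of 3 libraries per group. Isg15 and Ifit3 have 1 high Flox library (43.0 and 54.9), and Ifi27l2a is the gene of the 36 whose groups do not overlap.

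Ifi27l2a, which encodes a small mitochondrial protein induced by interferon, was the gene whose groups separated. It had 12359, 13186 and 11390 in Flox and 11072, 8596 and 10466 in AdIGF1RKO. Every AdIGF1RKO library lay below every Flox library, but AdIGF1RKO 1 and Flox 3 were close. The mean was 12312 ± 899 in Flox and 10045 ± 1291 in AdIGF1RKO (SD, n = 3 each), a ratio of 0.816. Its log2 difference of -0.30 (95% interval -0.67 to 0.07) was not called by limma (adjusted p = 0.998). With quantile normalization the difference was 0.25 and the groups overlapped. The 12 adipocyte markers had median log2 deviations of -0.05, 0.24 and -0.12 in Flox and 0.05, -0.10 and 0.05 in AdIGF1RKO. They shared with Ifi27l2a the high value of Flox 2 and the low value of AdIGF1RKO 2. Unlike Ifi27l2a, they were lowest in Flox 3 and stood higher in AdIGF1RKO 1 and 3 than in Flox 1 and 3. Their part in the result was not tested. Ifi27, its relative, overlapped between the groups, at 1226, 1250 and 1161 in Flox and 1147, 1372 and 1211 in AdIGF1RKO (log2 0.03, SE 0.11). Xaf1, a promoter of apoptosis, had 66.2, 64.6 and 51.7 in Flox and 57.8, 61.8 and 49.7 in AdIGF1RKO, with the library numbered 3 lowest in each group. Ifi35, Ifi44 and Rtp4 had log2 differences of 0.03, -0.02 and 0.01.

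The interferon-induced GTPases and the immunoproteasome are best known as targets of interferon gamma. Gbp2, a guanylate-binding protein that attacks membranes around microbes, had 66.3, 63.6 and 51.4 in Flox and 74.9, 65.9 and 68.0 in AdIGF1RKO. Its log2 difference was 0.21 with a 95% interval from -0.09 to 0.50 (limma adjusted p = 0.998), and only Flox 1 reached the AdIGF1RKO range. Iigp1, a GTPase acting on the vacuoles of parasites, had 51.2, 42.9 and 31.9 in Flox and 42.4, 55.4 and 49.0 in AdIGF1RKO. Gbp3, a relative of Gbp2, had 37.7, 38.3 and 32.8 in Flox and 40.2, 37.0 and 34.4 in AdIGF1RKO. Flox 3 was the lowest library for all 3 GTPase genes. The log2 differences of Iigp1 and Gbp3 were 0.23 (SE 0.19) and 0.04 (SE 0.11).

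The immunoproteasome cuts proteins into peptides and TAP carries these into the endoplasmic reticulum for loading on MHC class I. Psmb8, a catalytic subunit, had 151, 141 and 121 in Flox and 132, 138 and 112 in AdIGF1RKO. Psmb9, another catalytic subunit, had 46.8, 42.9 and 38.3 in Flox and 42.8, 40.0 and 43.2 in AdIGF1RKO. Tap1, which shares its promoter stretch with Psmb9, had 29.7, 27.6 and 22.2 in Flox and 27.2, 27.7 and 24.4 in AdIGF1RKO. Flox 1 was the highest library for all 3 genes. Counting is not stated to use strand, so reads from any overlap of neighbouring genes cannot be told apart. The log2 differences were -0.11 (SE 0.13), -0.02 (SE 0.10) and 0.00 (SE 0.13).

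Genes with and without the ISRE core in their window were set side by side, as a description. The 12 genes with the core stood at -0.02, 0.17 and -0.29 in Flox and 0.11, 0.07 and -0.07 in AdIGF1RKO (median log2 deviation relative to all tested genes). The 12 with a window and no core stood at 0.13, 0.13 and -0.15 in Flox and 0.04, -0.04 and -0.13 in AdIGF1RKO. Flox 2 was high and Flox 3 low in both sets, and the differences between the sets were not tested.

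Of 115 other pathway genes in the table, 113 were tested and 0 were called by limma, with 0 at an unadjusted p under 0.05. Of the 113, 62 were positive and the median log2 difference was 0.02. Groups without overlap occurred for 3 of them (2.65%), against 8.27% of all genes. The helicase gene Ddx60 had 4.65, 5.13 and 5.47 in Flox and 4.58, 4.28 and 4.38 in AdIGF1RKO. Gbp5 had 11.8, 11.5 and 9.82 in Flox and 12.0, 12.2 and 13.3 in AdIGF1RKO. Gbp10 had 5.71, 4.56 and 5.22 in Flox and 5.84, 6.26 and 8.84 in AdIGF1RKO. Ddx60 was thus lower and Gbp5 and Gbp10 higher in every AdIGF1RKO library, none of them called by limma (adjusted p = 0.998). The groups overlapped for Gbp4, Gbp6, Gbp7, Gbp8 and Gbp9, with differences from -0.09 (Gbp6) to 0.21 (Gbp8). Among receptors, Ifnar1 had 34.6, 33.7 and 26.8 in Flox and 34.4, 38.0 and 30.1 in AdIGF1RKO, and Ifngr1 had 309, 375 and 270 in Flox and 345, 307 and 349 in AdIGF1RKO. The groups overlapped for both, and the 5 tested receptor genes had differences from -0.03 to 0.16. Ifng, the ligand that acts on IFNGR1, lay between 0.124 and 0.622 scaled CPM, from 6 to 44 reads, and was below the filter. The other 9 ligand genes of the list are not analysed here.

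Downstream of the receptors, Stat3, a transcription factor of cytokine signalling, had a difference of -0.08 (SE 0.10) and the kinase gene Jak2 of -0.07 (SE 0.14). Of 16 sensing genes 8 were positive, with Irf8, a factor of macrophages and dendritic cells, at 0.19 (SE 0.16) and Mavs, the mitochondrial adaptor of RNA sensors, at -0.13 (SE 0.11). Of 10 negative regulators 4 were positive. Pias1, a SUMO ligase, had the smallest p of these pathway genes (limma adjusted p = 0.998), at 20.3, 20.7 and 17.6 in Flox and 14.6, 16.7 and 17.6 in AdIGF1RKO. Its groups met at the libraries numbered 3. Rnaseh2a, a subunit of the enzyme that clears RNA from DNA, had a difference of 0.35 (SE 0.20). Of 67 other interferon-stimulated genes 37 were positive, with Gbp10, another guanylate-binding protein, at 0.36 (SE 0.17) and the exonuclease gene Isg20 at -0.25 (SE 0.13). Of 10 antigen presentation genes 7 were positive, all within -0.10 to 0.10, with Erap1 at -0.10 (SE 0.11) and Ciita at 0.10 (SE 0.20).

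The 67 other interferon-stimulated genes stood at 0.10, 0.13 and -0.19 in Flox and 0.04, 0.06 and -0.07 in AdIGF1RKO. As for the 36, their median was highest in Flox 2 and lowest in Flox 3, while Flox 1 ranked higher than it did for the 36. Flox 2 was the highest library for 25 of the 67 and Flox 3 the lowest for 41.

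Markers of the cell types in the depot also varied by library, and limma called 0 genes of any of the lists. The 12 macrophage markers stood at 0.27, 0.11 and -0.37 in Flox and 0.01, 0.19 and -0.26 in AdIGF1RKO, with summed levels of 2032 to 3226 in Flox and 2334 to 3608 in AdIGF1RKO. Flox 3 was the lowest library for 11 of these 12, and Flox 1 was the highest for 6. The 8 genes of lipid-laden macrophages stood at 2.00 in AdIGF1RKO 2, which was the highest library for 7 of them, and between -0.51 and -0.17 in the other 5 libraries. Their summed levels, mostly Lpl, which adipocytes also express, were 3408 to 4383 in Flox and 3676 to 4797 in AdIGF1RKO. Of 10 endothelial markers 9 were positive. For 6 of them (60%) AdIGF1RKO was higher without overlap of the groups, as for 573 of all 12993 tested genes. Flox 3 was the lowest library for 8 of the 10, and their summed levels were 644 to 773 in Flox and 761 to 892 in AdIGF1RKO. The separation depended on the scaling. In the deposited scaling their median deviations overlapped, at -0.03, -0.03 and 0.04 in Flox and 0.11, -0.18 and 0.10 in AdIGF1RKO. Taken relative to all tested genes in that scaling, they did not overlap. They were then -0.04, -0.02 and -0.17 in Flox and 0.25, 0.002 and 0.02 in AdIGF1RKO. Overlap of single endothelial genes in other scalings is not given here.

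Lymphocyte and lymph node markers, with 20 of 23 genes in the table, stood at 0.42, -0.07 and -0.39 in Flox and 0.22, 0.06 and -0.18 in AdIGF1RKO. Of the 14 tested, 9 were positive, with a median log2 difference of 0.08. Cd79b alone (7.14%, against 8.27% of all genes in either direction) was higher in AdIGF1RKO without overlap. The summed levels of the list, 89.9 to 122 in Flox and 87.0 to 93.7 in AdIGF1RKO, rest largely on Cxcl13 and Ccl21a. Plasmacytoid dendritic cells are specialised in making type I interferon, and 6 of 8 genes of their list are in the table. Their summed levels were 19.3 to 739 in Flox and 15.3 to 284 in AdIGF1RKO, and the high sums of both libraries numbered 3 are mostly Cox6a2, which skeletal muscle also expresses. Of the 4 tested genes 3 were positive and Flox 2 was the highest library for 0. NK cell markers had summed levels of 19.0 to 37.1 in Flox and 23.2 to 28.1 in AdIGF1RKO, and neutrophil markers 61.3 to 83.4 in Flox and 60.4 to 86.7 in AdIGF1RKO. Mmp9 was the largest part of the neutrophil sum in every library. Of the 5 tested neutrophil genes 3 were positive and 2 negative. Mean S100a8 was 8.40 in Flox and 17.7 in AdIGF1RKO, and mean Retnlg was 13.8 and 8.42. Retnlg alone (20%, against 8.27% of all genes in either direction) was lower in AdIGF1RKO without overlap. No gene of the table is at 0 in any library. The part of any of these cell types, or of muscle RNA, in the levels of the interferon-stimulated genes was not tested.

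**Figure D4:**
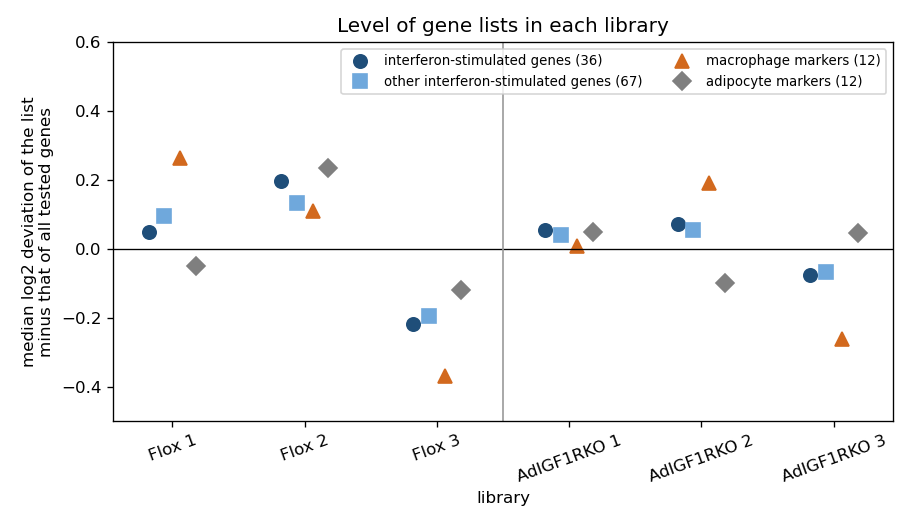
Median log2 deviation from the gene means, relative to all tested genes, of 4 gene lists in each library (vertical axis, log2 units). The 36 interferon-stimulated genes and the 67 others are highest in Flox 2 (0.20 and 0.13) and lowest in Flox 3 (-0.22 and -0.19), and macrophage markers are highest in Flox 1 (0.27) and lowest in Flox 3 (-0.37).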

How the data were processed

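Polyadenylated RNA of 6 libraries was measured, 3 per group, grouped by the labels' titles. Per the labels' protocols, stranded libraries were made from TRIzol-extracted RNA. The submitters' processing notes name the build GRCm39, while aligner, counter and filter are not named there or in the labels. The authors deposited 1 table of signal values for 14861 genes, named FPKM. Every value was, within a rounding tolerance of 0.5, a whole read count times 1000000000 over a single divisor per library (100.0% of values), so the deposited signal is not divided by gene length.

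Reads were recovered and divided by median-ratio size factors (0.731 to 1.17). They were expressed per 1000000 reads of a library of geometric mean size (scaled CPM). A mean of 1 or more was required, which kept 12993 genes and dropped 1868. Group differences were estimated in limma 3.58.1 (R 4.3.3) on log2(scaled CPM + 1) with an intensity trend. All p-values are two-sided, come from this model unless another is named, and were adjusted by Benjamini-Hochberg over all tested genes with a threshold of 0.05. The log2(value + 1) scale understates the change of low genes. An exact permutation test of 3 against 3 could not go below 0.1. The edgeR 4.0.16 quasi-likelihood test and DESeq2 1.42.0 were run on the recovered read counts as alternatives, beside other scalings, pseudocounts, filters, array quality weights, a replicate block and left-out libraries. The scripts were tested on simulated data.

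Same-numbered libraries deviated together from their group means, with r over genes of 0.35, 0.35 and 0.83 for numbers 1, 2 and 3. Since all 3 exceed 0.1, the numbers were treated as pairs in the blocked fit. Deviations from a group mean sum to 0 within the group, so these r values are not separate evidence of pairing. Flox 2 correlated more closely with AdIGF1RKO 1 (0.70), and Flox 1 correlated with AdIGF1RKO 2 at 0.33. No label says what a number marks.

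Values in each library are given for up to 3 of the 36 genes per role with the smallest unadjusted p, and for each whose groups do not overlap. In each role of the wider pathway up to 2 genes with the smallest p are named. Genes named beyond that were chosen after their values were seen, as were the motif searches, the printed promoters and the plotted genes. Some genes of the wider pathway are not reported here. The genes and lists were chosen with earlier results of these data known. Promoter windows come from the RefSeq table of build GRCm38.p6. They were matched by symbol, and their coordinates are of that build only.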

Additional observations from a re-analysis of the deposited data

How the results depend on the processing

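No interferon-stimulated gene was called under any setting run: other scalings, pseudocounts, filters, array quality weights, edgeR, DESeq2, the replicate block or left-out libraries. The counts of interferon-stimulated genes at an unadjusted limma p under 0.05 were 5 with the values as deposited (Ifi27l2a, Irf7, Oas2, Psmb8 and Xaf1, all lower, of 515 among all 12993 genes), 2 with array quality weights (Ifi27l2a and Irf7, lower, of 857) and 2 without Flox 2 (Ifit3 and Mx2, higher, of 383). There was 1 each, lower, without Flox 3 (Irf7, of 434), without AdIGF1RKO 1 (Oas2, of 475) and without both libraries numbered 3 (Irf7, of 381), and 0 in the other limma fits. Over all genes DESeq2 called 23, and leaving out libraries in turn gave 0 to 1 (1 without Flox 1). With the replicate block 0 genes were called over all and 0 of the 36, and no call changed. The median log2 difference of the 36 was -0.14 with the values as deposited and lay between -0.09 (without Flox 3) and 0.13 (without Flox 2) when a library was left out. Genes with groups that do not overlap numbered 13 with the values as deposited (36.1%, all lower, against 12.5% of all genes in either direction). In that scaling only 14.8% of all genes were positive, with a median of -0.17, and the median of the 36 lay 0.04 above it. They numbered 0 with equal sums (against 6.66% of all genes) and 0 with quantile normalization (against 7.15%). Without both libraries numbered 3 they numbered 9 (25%, 8 of them lower, against 30.3% of all genes). They numbered 2 to 8 when a library was left out, with 8 without Flox 2 (22.2%, against 17.3% of all genes; Ifi27l2a lower and the other 7 higher) and 7 without Flox 3 (19.4%, against 18.6%; all lower).

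A change of sign counts here only where the difference also moved by more than 1 SD between replicates, a rule chosen after the values were seen. This held with the values as deposited for Parp9 (-0.0745), Parp14 (-0.11), Ifi27 (-0.13), Ifi35 (-0.14) and Gbp3 (-0.12). It also held for Stat2 with equal sums (0.10), Ifi27l2a with quantile normalization (0.25) and Zbp1 without both libraries numbered 3 (-0.0636). The signs of 13 genes changed with the values as deposited, 9 with equal sums, 5 with quantile normalization, 5 with array quality weights, 4 with edgeR, 3 with DESeq2, 8 without both libraries numbered 3, and 3 (without Flox 2) to 14 (without Flox 3) when a library was left out. The cause was not tested. The depth limits Oas3, Mx2 and Mx1 most, at 79 to 414 reads, and a mean of at least 5 leaves 33 of the 36.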
